A study of Mus musculus with 6 samples.

Results

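Potassium channel genes were taken as all probe sets of the array annotated to a single mouse symbol that begins with Kcn, followed by letters and a digit. This rule gave 167 probe sets of 84 genes, out of 34945 probe sets of 18193 genes with a single symbol, and used no measured value. They were compared between aortas of B6 mice, which are non-transgenic C57BL/6J mice, untreated ApoE-/- mice and vitamin E-treated ApoE-/- mice. The ApoE-/- mice carry the disrupted Apoe gene on the same C57BL/6J background. All mice received chow with 7% fat and 0.15% cholesterol, and the aortas were taken at 32 to 34 weeks of age and, per the labels, cleaned of adhering fat, although adipocyte markers were bright on every array (Adipoq 7022 to 11405, Ucp1 6371 to 7911). Vitamin E was supplied in the diet at 2000 IU per kg for 7 months, and no group of vitamin E-treated B6 mice was analysed here. Each group had 2 arrays, and each array carried pooled RNA of 3 aortas, so that variation from mouse to mouse was not measured. Because the same B6 and untreated ApoE-/- arrays enter more than 1 comparison, the differences reported for a gene share arrays and are given side by side.

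Potassium channels let potassium leave the cell and thereby set the resting membrane potential and end the action potential. In arterial smooth muscle, their opening hyperpolarizes the cell, closes voltage-gated calcium channels and relaxes the vessel. Axons and cell bodies of neurons, cardiac myocytes of atrium and ventricle, and lymphocytes each use other family members, which is why the genes were sorted here by the tissue for which each is best known, into neuronal, cardiac, smooth muscle, striated muscle, immune and endothelial, epithelial, glial and unassigned classes.

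The measured quantity was the signal intensity, a linear value without unit that is scaled to the same level on every array and cannot be compared between probe sets. Over the 6 arrays the mean signal intensity was 305 to 319, and 35.8% to 37.3% of the probe sets reached 100. Apoe had signal intensities of 5209 and 5432 on the B6 arrays and of 40.5 to 93.2 on the 4 arrays of ApoE-/- aortas. The poly-A control transcripts, which are added before labelling, were 2.62 to 4.11 times as high on B6 as on untreated ApoE-/- arrays and 2.21 to 3.32 times as high on B6 as on vitamin E arrays, whereas the vitamin E to untreated ApoE-/- ratio was 1.09 to 1.26. The Gapdh ratio of 3′ to 5′ probe sets was 1.34 and 1.35 on B6 arrays and 1.03 to 1.24 on the other 4, with the untreated ApoE-/- arrays lowest. The beta-actin ratio was 2.005 and 2.06 on B6, 1.777 and 1.884 on untreated ApoE-/- and 1.639 and 1.642 on vitamin E arrays. A difference in labelling or RNA quality between B6 and the ApoE-/- groups therefore cannot be told apart from genotype. Between the ApoE-/- groups, a difference in RNA quality cannot be told apart from vitamin E treatment. The vitamin E arrays are also labelled in another wording and carry sample numbers far apart from those of the B6 and untreated ApoE-/- arrays. Whether they were processed together with the others was not examined. A difference in processing could not be told apart from vitamin E treatment.

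A probe set was tested with limma when its mean signal intensity was at least 100 in at least 1 group, and a call required an adjusted p under 0.05 (Benjamini-Hochberg over the 17909 probe sets tested). Of the 167 potassium channel probe sets, 33 of 25 genes passed this filter, which left 59 genes without a tested probe set. The tested probe sets were 12 of 73 in the neuronal class, 8 of 24 in the cardiac class, 4 of 15 in the smooth muscle class, 2 of 5 in the striated muscle class, 2 of 4 in the immune and endothelial class, 1 of 13 in the epithelial class, 0 of 1 in the glial class and 4 of 32 among unassigned genes. A probe set that passed only through the group in which it was bright had to differ between groups, so the counts over tested probe sets are descriptions. Among the called probe sets, those of Kcng2, Kcnj5, Kcnq1 and 1 of Kcnj3 reached 100 in untreated ApoE-/- mice alone, those of Kcnc4, Kcnd3, Kcnq3 and 1 of Kcna2 in B6 mice alone, and 1 of Kcnq1ot1 in the vitamin E group alone. Those of Kcnh3 reached 100 in both ApoE-/- groups but not in B6 mice, and 1 of Kcna1 in all but untreated ApoE-/- mice. Their fold changes and adjusted p values carry the same limit. At the edge of the filter, the highest group mean was 90.3 for a probe set of Kcnma1, 94.9 for Kcnip4 and 98.3 for another probe set of Kcnq5, which were left out, and 101 for another probe set of Kcnk3, 103 for Kcnq1ot1 and 106 for Kcnd3, which were kept. The plot of all potassium channel probe sets by class shows how few of them were bright in this tissue.

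**Figure D1:**
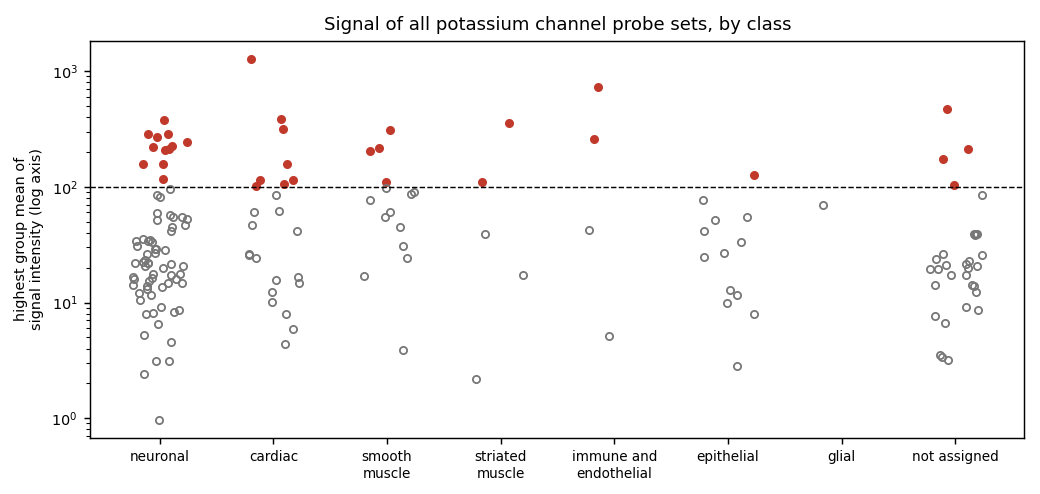
Highest of the 3 group means of signal intensity (log axis) for each of the 167 potassium channel probe sets, by class. Filled points are the 33 tested probe sets and open points the 134 others, and the dashed line marks the limit of 100.

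In untreated ApoE-/- relative to B6 mice, 20 of the 33 tested probe sets were called (60.6%), while 40.8% of all tested probe sets were called in this comparison. Of the 20, 9 were higher and 11 lower, beside 21.7% and 19.1% of all tested probe sets. The signals of the compared groups did not overlap for 31 of 33, beside 76.8% of all tested, and 18 were called at a difference of at least 1.5-fold without overlap, beside 19.8%. In the vitamin E group relative to untreated ApoE-/- mice, 9 of 33 were called (27.3%), beside 15.5% of all tested probe sets. Of these, 3 were higher (8.52% of all tested) and 6 lower (6.99%), 26 of 33 did not overlap (58.9%), and 7 were called at 1.5-fold or more without overlap (6.85%). In the vitamin E group relative to B6 mice, 19 of 33 were called (57.6%), beside 41.1% of all tested probe sets, 9 of them higher (21.9% of all tested) and 10 lower (19.2%). Here 27 of 33 did not overlap (71.5% of all tested), and 14 were called at 1.5-fold or more without overlap (19.4%). Several of these probe sets belong to the same gene, and no test compared these shares. The median log2 fold change of the 33 was 0.01, 0.04 and −0.06 in the 3 comparisons, near the medians over all tested probe sets of 0.03, 0.00 and 0.02. Without the filter on dim probe sets, more probe sets share the adjustment and the shared spread is fitted anew, and the parts of these were not tested. Of the 48 calls, 20 were then kept. These were, in untreated ApoE-/- relative to B6 mice, 2 probe sets of Kcna1, both of Kcnn4, 1 of Kcnj3 and those of Kcng2, Kcnk6, Kcnq1 and Kcnq3. Between the ApoE-/- groups they were 1 probe set each of Kcnk3, Kcnn4 and Kcnq1, and in the vitamin E group relative to B6 mice 2 of Kcna1, both of Kcnn4 and 1 each of Kcna5, Kcnk3, Kcnk6 and Kcnq1ot1. Without untreated ApoE-/- replicate 1, the first count was 13. Without untreated ApoE-/- replicate 2, the second count was 5, and without B6 replicate 1 the third count was 11. The split of the third comparison into 9 higher and 10 lower also rests on the scaling of the arrays, since it was 6 higher and 13 lower when each array was centred on its median and 6 higher and 12 lower after quantile normalization. Median centring shifted the median log2 fold change of all tested probe sets in that comparison by −0.15.

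**Figure D2:**
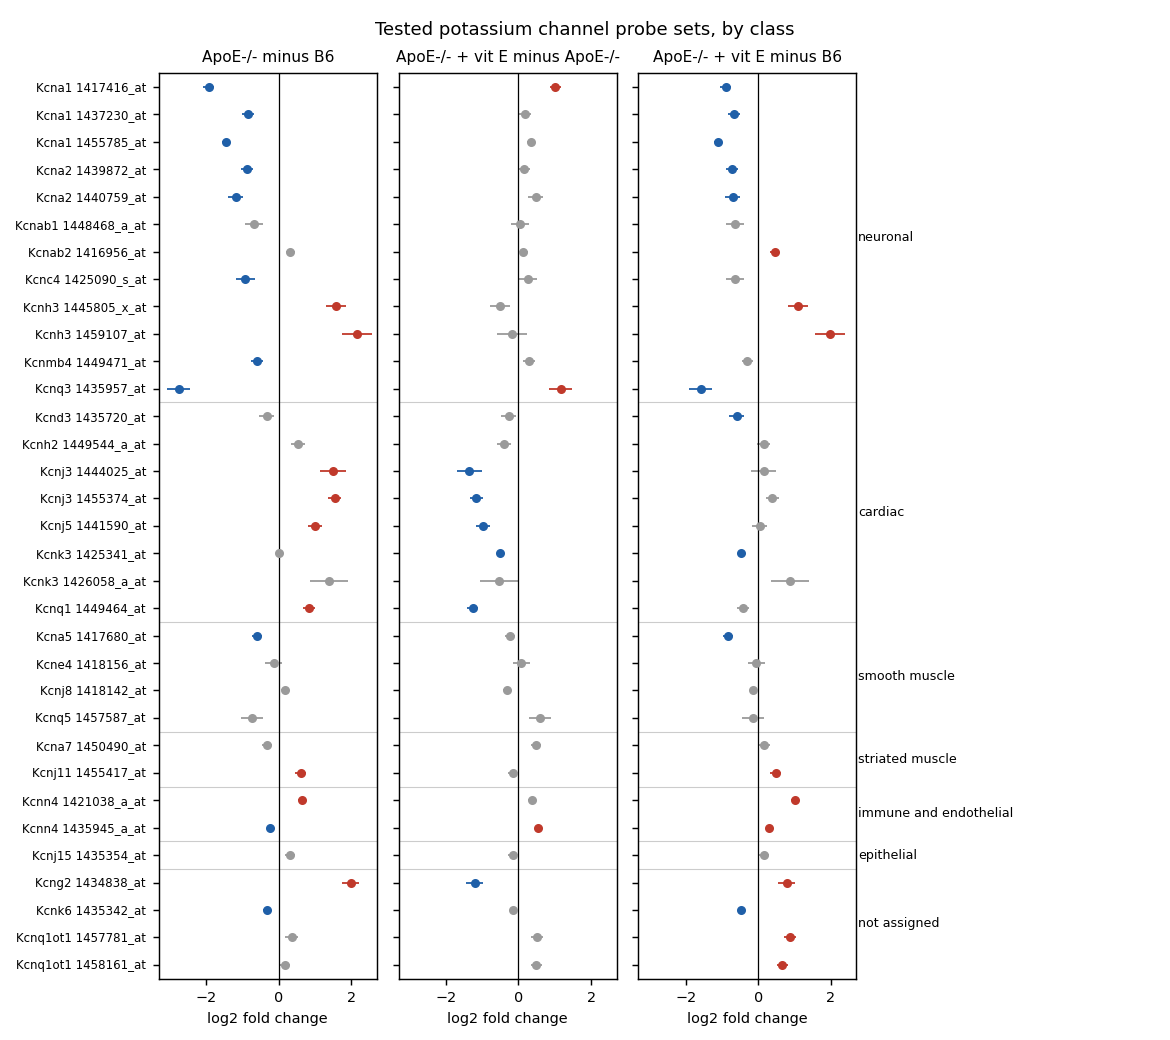
Log2 fold change of signal intensity for the 33 tested probe sets in the 3 comparisons, with bars of 1 standard error (SE) from limma, grouped by class. Red points were called higher, blue points lower, and grey points were not called; blue prevails among neuronal probe sets in the comparison of untreated ApoE-/- with B6 mice (8 of 12), and cardiac probe sets are red there (4 of 8) and blue with vitamin E (5 of 8).

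Of the neuronal potassium channel genes, Kcna1, Kcna2 and Kcnq3 were lower in both ApoE-/- groups than in B6 aortas by every tested probe set. Of the 12 tested probe sets, 8 of 5 genes fell in untreated ApoE-/- aortas, namely those of Kcna1, Kcna2, Kcnc4, Kcnmb4 and Kcnq3, while both tested probe sets of Kcnh3 rose. Of all tested probe sets, 19.1% were lower and 21.7% higher there. The median log2 fold change of the class was −0.86, beside 0.03 over all tested probe sets, and no test compared classes. With vitamin E relative to untreated ApoE-/- mice, 2 probe sets rose and none of the 12 fell, with a median of 0.22. The share called was 16.7%, close to the 15.5% of all tested probe sets. Of these 2 calls, that of Kcnq3 was lost in most alternative runs, as given below. Against B6 aortas, the vitamin E-treated group had 6 lower and 3 higher probe sets and a median of −0.66.

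Kcna1 and Kcna2 encode pore subunits of delayed rectifier channels that sit beside the nodes of Ranvier and at axon terminals. Kcna1 probe set 1417416_at gave 285 and 290 on B6 arrays, 85.0 and 67.9 on untreated ApoE-/- arrays, and 145 and 162 on vitamin E arrays. The 3 groups did not overlap, with B6 highest and untreated ApoE-/- lowest. Its level was 3.78-fold lower in untreated ApoE-/- mice than in B6 mice (log2 fold change −1.92, standard error, SE, 0.15, adjusted p = 0.0001 from limma), 2.02-fold higher with vitamin E than without (1.02, adjusted p = 0.0058 from limma), and still 1.87-fold lower with vitamin E than in B6 aortas (−0.90, adjusted p = 0.0031 from limma). Probe set 1455785_at of the same gene gave 364 and 397, 146 and 132, and 174 and 176 for these groups in turn. It fell by 1.45 and 1.12 on the log2 scale in the untreated and the treated ApoE-/- group relative to B6 (adjusted p = 9.3e-05 and 0.00033 from limma), whereas its difference of 0.34 between the ApoE-/- groups was not called (adjusted p = 0.085). The third, 1437230_at, gave 209 and 283, 132 and 139, and 154 and 153, with log2 fold changes of −0.85 and −0.66 against B6 (adjusted p = 0.0052 and 0.014 from limma) and 0.18 between the ApoE-/- groups (adjusted p = 0.47). The 3 tested probe sets of Kcna1 were thus lower in both ApoE-/- groups than in B6 aortas, and 1 of 3 was called higher with vitamin E. The untested 1442413_at of this gene had group means of 11.1, 13.0 and 12.7, under the floor of 20. The calls of 1417416_at and 1455785_at against B6 were kept in every alternative limma fit, and that of 1437230_at in the vitamin E group relative to B6 mice was lost without B6 replicate 2 (adjusted p = 0.0885).

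Both tested probe sets of Kcna2 were lower as well, but not the dim ones. Probe set 1440759_at gave 168 and 149 on B6, 79.7 and 61.4 on untreated ApoE-/- and 111 and 85.2 on vitamin E arrays, with no overlap between groups. Its log2 fold changes against B6 were −1.18 in untreated (adjusted p = 0.0034 from limma) and −0.70 in vitamin E-treated ApoE-/- aortas (adjusted p = 0.028). Probe set 1439872_at gave 216 and 205, 121 and 109, and 145 and 111, so that B6 was highest and the ApoE-/- groups overlapped. Its log2 fold changes against B6 were −0.88 (adjusted p = 0.0046 from limma) and −0.73 (adjusted p = 0.0098), and neither tested probe set was called between the ApoE-/- groups (0.47 and 0.14, adjusted p = 0.16 and 0.59). In the vitamin E group relative to B6 mice, 1439872_at was no longer called without B6 replicate 1 (adjusted p = 0.0667), nor 1440759_at without either B6 array (0.139 and 0.0761) or without vitamin E replicate 2 (0.107). The untested probe sets of Kcna2 ran the other way. Of these, 1457911_at gave 6.77 and 11.5 on B6, 49.2 and 40.5 on untreated ApoE-/- and 43.9 and 62.1 on vitamin E arrays, and 1422197_at had group means of 5.66, 13.8 and 14.9, under the floor of 20. The promoter of Kcna2, a neuronal gene whose probe sets thus disagree, is shown here, from 250 bases before to 50 bases after its annotated start (RefSeq, GRCm38.p6, chr3:107101317-107101616, plus strand). Capitals mark a GC box, GGGCGG, the letters bound by Sp1-type factors.
Kcna2: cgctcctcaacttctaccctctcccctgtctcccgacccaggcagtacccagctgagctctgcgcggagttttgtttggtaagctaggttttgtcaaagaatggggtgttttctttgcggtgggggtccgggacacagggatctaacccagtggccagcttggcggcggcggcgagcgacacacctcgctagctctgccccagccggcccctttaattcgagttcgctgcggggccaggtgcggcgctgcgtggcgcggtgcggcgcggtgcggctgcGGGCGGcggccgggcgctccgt

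Kcnq3 encodes a subunit of the M-current channel, which damps repetitive firing of neurons including those of sympathetic ganglia. Its probe set had the largest fold among the potassium channel probe sets tested in untreated ApoE-/- relative to B6 mice. The signal intensity was 222 and 216 on B6 arrays, 40.5 and 26.2 on untreated ApoE-/- arrays and 98.3 and 53.9 on vitamin E arrays. Every B6 value exceeded every ApoE-/- value, and the lower vitamin E value exceeded both untreated ones. Kcnq3 fell 6.72-fold in untreated ApoE-/- aortas (log2 fold change −2.75, SE 0.32, adjusted p = 0.00057 from limma) and was 3.01-fold lower in the vitamin E group than in B6 mice (−1.59, adjusted p = 0.0066). It was 2.23-fold higher with vitamin E than without (1.16, SE 0.32, adjusted p = 0.049), but this call was lost with a floor of 50 on the signal (0.54, adjusted p = 0.205), with a floor of 1, after quantile normalization, without intensity trend and without any array but vitamin E replicate 2 (adjusted p = 0.0733 to 0.231). The fold between the ApoE-/- groups was 0.72 on the log2 scale without vitamin E replicate 1.

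Kcnc4, a fast-inactivating pore subunit, and Kcnmb4, the accessory subunit of calcium-activated BK channels in neurons, were lower in untreated ApoE-/- mice than in B6 mice. The Kcnc4 probe set, of the type that may detect transcripts of more than 1 gene, gave 136 and 99.5 on B6, 55.3 and 69.0 on untreated ApoE-/- and 88.2 and 61.8 on vitamin E arrays. The difference was −0.91 on the log2 scale in untreated ApoE-/- relative to B6 mice (SE 0.25, adjusted p = 0.023 from limma), and the call was lost without untreated ApoE-/- replicate 1 (adjusted p = 0.124). Without B6 replicate 1 no group mean reached 100, and Kcnc4 was not tested. Kcnmb4 gave 145 and 167, 107 and 100, and 113 and 141, with a log2 fold change of −0.59 (SE 0.16, adjusted p = 0.024 from limma) that was lost without any 1 of the 4 arrays compared (adjusted p = 0.0576 to 0.137). Neither gene was called in the other 2 comparisons.

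Kcnh3, a channel of forebrain neurons, went the other way by its 2 tested probe sets. Both are annotated to the same source sequence and are therefore not independent measures of the gene. Kcnh3 reached 100 in the ApoE-/- groups but not in B6 mice, so its fold changes carry the filter limit given above. Its probe set 1459107_at gave 42.9 and 81.4 on B6, 175 and 393 on untreated ApoE-/- and 203 and 261 on vitamin E arrays, and 1445805_x_at, some of whose probes can match other sequences, gave 88.7 and 80.3, 182 and 354, and 175 and 181. In both, B6 was lowest, and the untreated ApoE-/- arrays lay far apart. The log2 fold changes were 2.15 (SE 0.41) and 1.59 (0.28) in untreated ApoE-/- relative to B6 mice (adjusted p = 0.0056 and 0.0036 from limma), and 1.96 and 1.08 in the vitamin E group relative to B6 mice (adjusted p = 0.0082 and 0.018), with no call between the ApoE-/- groups (−0.19 and −0.51, adjusted p = 0.8 and 0.25). The calls in the vitamin E group relative to B6 mice were lost without B6 replicate 1 for both probe sets (adjusted p = 0.0632 and 0.0723), and for 1445805_x_at also without B6 replicate 2 (0.0974) or vitamin E replicate 2 (0.0551). The other 2 probe sets of Kcnh3 stayed under 100 on every array and were not tested. Their group means in B6, untreated and vitamin E-treated mice were 32.5, 52.2 and 49.6 for 1421619_at and 6.17, 5.88 and 15.9 for 1431690_at. Of the beta subunits, Kcnab2 was called in the vitamin E group relative to B6 mice, with a log2 fold change of 0.45 (adjusted p = 0.022 from limma). That call was lost under median centring (0.30, adjusted p = 0.11), without vitamin E replicate 2 (0.0555) and without B6 replicate 2 (0.129), and Kcnab1 was not called in any comparison. Both beta subunits were picked with their values known.

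**Figure D3:**
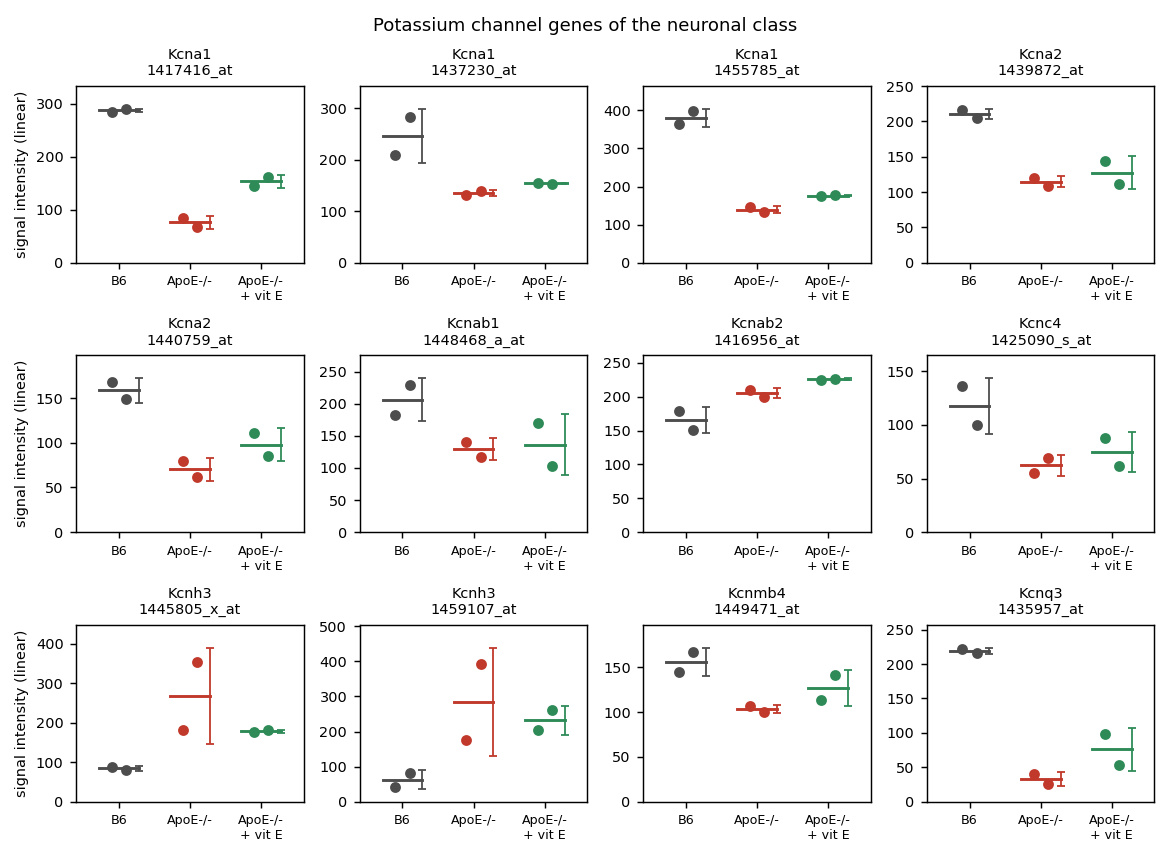
Signal intensity (linear, each panel on its own axis from 0) of the 12 tested neuronal probe sets on the 6 arrays, with points for arrays, horizontal lines for group means and bars for 1 SD (n = 2). B6 points lie above all ApoE-/- points for Kcna1, Kcna2, Kcnc4 and Kcnq3, and below them for Kcnh3.

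In untreated ApoE-/- relative to B6 mice, most marker genes of nerve tissue moved with the tested probe sets of Kcna1, Kcna2 and Kcnq3, but not with those of Kcnh3. Of 10 general neuronal markers, all 10 were lower in untreated ApoE-/- mice than in B6 mice, with a median log2 fold change of −1.46, and their summed signal intensity was 7234 to 7321 on B6, 2696 to 2804 on untreated ApoE-/- and 3518 to 3640 on vitamin E arrays. Of 9 sympathetic neuron markers, 8 were tested and all 8 were lower, with a median of −1.27 and sums of 11755 to 12122, 4401 to 4503 and 5809 to 6177. With vitamin E relative to untreated ApoE-/- mice, 5 of 10 and 6 of 8 were higher, and against B6 aortas all 10 and all 8 remained lower in the vitamin E-treated group. Of 9 Schwann cell and myelin markers, 6 were tested, with 4 lower and 1 higher in untreated ApoE-/- relative to B6 mice, 2 lower with vitamin E relative to untreated ApoE-/- mice and sums of 4405 to 4484, 3695 to 3763 and 3030 to 3104. No tested marker of these lists was under 20 on all arrays. In whole aortic RNA, fewer cells of a type and less RNA per cell cannot be told apart, and the part of the nerve tissue amount in the values of Kcna1, Kcna2 and Kcnq3 was not tested.

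Among the cardiac potassium channel genes, Kcnj3, Kcnj5 and Kcnq1 were higher in untreated ApoE-/- mice than in both other groups by their tested probe sets, of which 1 of Kcnj3 reached 100 in every group. Of the 8 tested cardiac probe sets, 4 rose and none fell in untreated ApoE-/- relative to B6 mice, with a median log2 fold change of 0.92. Of all tested probe sets, 21.7% were higher and 19.1% lower there. With vitamin E, 5 fell and none rose against untreated ApoE-/- aortas, with a median of −0.75, beside 6.99% lower and 8.52% higher of all tested. Those of Kcnj5 and Kcnq1 and 1 each of Kcnj3 and Kcnk3 reached 100 in untreated ApoE-/- mice alone. The filter thus partly sets these counts and medians, which are descriptions. Both tested probe sets of Kcnj3 and the tested ones of Kcnj5 and Kcnq1 were called in both comparisons and in neither direction between the vitamin E group and B6 mice, where the class had 2 lower probe sets and a median of 0.09.

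Kcnj3 and Kcnj5 encode the subunits that together form the acetylcholine-activated potassium channel of the atrium, through which the vagus nerve slows the heart. Kcnj3 probe set 1455374_at gave 144 and 121 on B6, 388 and 385 on untreated ApoE-/- and 204 and 146 on vitamin E arrays. The untreated ApoE-/- arrays were highest, and the lowest of the other 2 groups was B6, with no overlap. It rose 2.92-fold in untreated ApoE-/- relative to B6 mice (log2 fold change 1.54, SE 0.17, adjusted p = 0.0005 from limma) and was 2.23-fold lower with vitamin E than without (−1.16, SE 0.17, adjusted p = 0.006). Probe set 1444025_at of Kcnj3 gave 47.7 and 34.1, 128 and 102, and 63.0 and 31.8, with untreated ApoE-/- highest and overlap of the other groups. It was 2.83-fold higher in untreated ApoE-/- mice than in B6 mice (log2 fold change 1.499, SE 0.35, adjusted p = 0.012 from limma) and 2.55-fold lower with vitamin E (−1.35, adjusted p = 0.04). The first of these calls was lost without untreated ApoE-/- replicate 1 (adjusted p = 0.078) or B6 replicate 2 (0.0775). The second was lost without any array but vitamin E replicate 1 (adjusted p = 0.0637 to 0.195), without intensity trend (0.0586) and in a fit of only these groups (0.0591), with a log2 fold change of −0.86 without vitamin E replicate 2. Kcnj5 gave 51.9 and 62.4 on B6, 105 and 124 on untreated ApoE-/- and 62.0 and 54.6 on vitamin E arrays, so that B6 and vitamin E values overlapped and untreated ApoE-/- values lay above both. Its level was 2.01-fold higher in untreated ApoE-/- mice than in B6 mice (log2 fold change 1.01, SE 0.19, adjusted p = 0.0055 from limma) and 1.96-fold lower with vitamin E than without (−0.97, adjusted p = 0.017). The second call was lost without either untreated ApoE-/- array (adjusted p = 0.0702 and 0.123) or vitamin E replicate 2 (0.0512). Kcnj5 and Kcnj3 probe set 1444025_at passed the filter through untreated ApoE-/- mice alone, which fixes that this group is high, and neither was tested when the mean of all arrays had to reach 100. Of the dim probe sets, 1421468_at of Kcnj3 gave 33.6 and 48.3 on B6, 59.4 and 50.3 on untreated ApoE-/- and 47.5 and 76.6 on vitamin E arrays, with the vitamin E values spanning those of the untreated group. The other untested ones had group means of 0.508, 7.89 and 0.732 for 1444336_at of Kcnj3 and 12.0, 25.6 and 18.3 for 1421762_at of Kcnj5.

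Because the tested probe sets of both channel partners moved together, their promoters are shown in the same way, from 250 bases before to 50 bases after the annotated start (RefSeq, GRCm38.p6, chr2:55435720-55436019 on the plus strand for Kcnj3 and chr9:32344295-32344594 on the minus strand for Kcnj5), with GC boxes GGGCGG in capitals.
Kcnj3: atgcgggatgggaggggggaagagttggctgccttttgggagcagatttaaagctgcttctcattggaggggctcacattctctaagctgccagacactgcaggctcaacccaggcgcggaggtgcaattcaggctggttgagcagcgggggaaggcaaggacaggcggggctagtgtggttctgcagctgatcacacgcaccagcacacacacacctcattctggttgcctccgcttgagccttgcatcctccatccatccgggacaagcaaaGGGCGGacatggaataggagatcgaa
Kcnj5: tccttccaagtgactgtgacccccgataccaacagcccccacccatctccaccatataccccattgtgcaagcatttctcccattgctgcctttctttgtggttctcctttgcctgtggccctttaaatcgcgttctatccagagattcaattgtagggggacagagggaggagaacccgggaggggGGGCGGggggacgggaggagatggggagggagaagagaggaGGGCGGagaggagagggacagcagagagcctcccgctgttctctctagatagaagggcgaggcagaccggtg
Kcnj3 has 1 such match and Kcnj5 has 2. Over 89 promoter entries of 64 potassium channel genes, 43 held GGGCGG on either strand (48.3%), beside 35.7% of all 32851 promoters of the same length. The GATA motif GATAA was held by 16.9% and 25.4%, the TATA box TATAAA by 5.62% and 13.6%, the RE1 core TTCAGCACC by 0 of 89 and 0.371%, and the CArG box by 0 of 89 and 1.63%. Both strands were searched for each motif, and matches of different motifs could share bases. No promoter entry of Kcna1, Kcnq1 or Kcnq3 was used here.

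Kcnq1, the pore of the slow delayed rectifier of the heart, gave 94.0 and 81.8 on B6, 164 and 149 on untreated ApoE-/- and 66.3 and 64.3 on vitamin E arrays. The 3 groups did not overlap, with untreated ApoE-/- highest and vitamin E lowest. It was 1.78-fold higher in untreated ApoE-/- mice than in B6 mice (log2 fold change 0.83, SE 0.16, adjusted p = 0.0051 from limma), 2.39-fold lower with vitamin E than without (−1.26, adjusted p = 0.0028), and −0.43 between the vitamin E group and B6 mice, which was not called (adjusted p = 0.065). Both calls were kept in every alternative limma fit.

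Kcnk3 encodes a tandem-pore background channel closed by acid, known from atrium, adrenal cortex and pulmonary artery. Its bright probe set 1425341_at gave 1310 and 1231 on B6, 1265 and 1292 on untreated ApoE-/- and 876 and 935 on vitamin E arrays. Here B6 and untreated ApoE-/- values overlapped, and vitamin E values lay under both. The log2 fold change was 0.01 in untreated ApoE-/- relative to B6 mice (adjusted p = 0.92 from limma), −0.50 with vitamin E relative to untreated ApoE-/- mice (SE 0.07, adjusted p = 0.0039) and −0.49 against B6 aortas (adjusted p = 0.0013), and both calls were kept in every alternative limma fit. The dim probe set 1426058_a_at gave 18.8 and 73.6, 90.1 and 113, and 72.1 and 67.2 and was not called in any comparison. Its log2 fold change in untreated ApoE-/- relative to B6 mice was 1.39 (adjusted p = 0.068 from limma). The untested 1425342_a_at gave 18.2 and 18.6, 44.0 and 49.4, and 14.0 and 29.2. In both dim probe sets, the untreated ApoE-/- values were the highest.

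The remaining cardiac genes are those of the ventricular repolarizing currents. Kcnh2, the pore of the rapid delayed rectifier, gave 252 and 190 on B6, 337 and 299 on untreated ApoE-/- and 208 and 281 on vitamin E arrays. The untreated ApoE-/- values were the highest, but the log2 fold changes of 0.54 against B6 (adjusted p = 0.052 from limma) and −0.39 with vitamin E (adjusted p = 0.19) were not called. Kcnd3, a pore of the transient outward current, gave 93.1 and 119, 79.3 and 88.4, and 77.3 and 62.3. It was called lower in the vitamin E group than in B6 mice (log2 fold change −0.60, SE 0.20, adjusted p = 0.045 from limma), a call kept without vitamin E replicate 1 and lost without vitamin E replicate 2, either untreated ApoE-/- array or B6 replicate 1 (adjusted p = 0.054 to 0.161), and also with the replicate block, a floor of 1 or a fit of only these groups. Without B6 replicate 2 no group mean reached 100, and Kcnd3 was not tested. Kcnip2, the accessory subunit of that current, was not tested and gave 44.6 and 32.6, 84.0 and 87.0, and 32.8 and 39.9. It was picked with its values known, and its untreated ApoE-/- values were the highest.

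**Figure D4:**
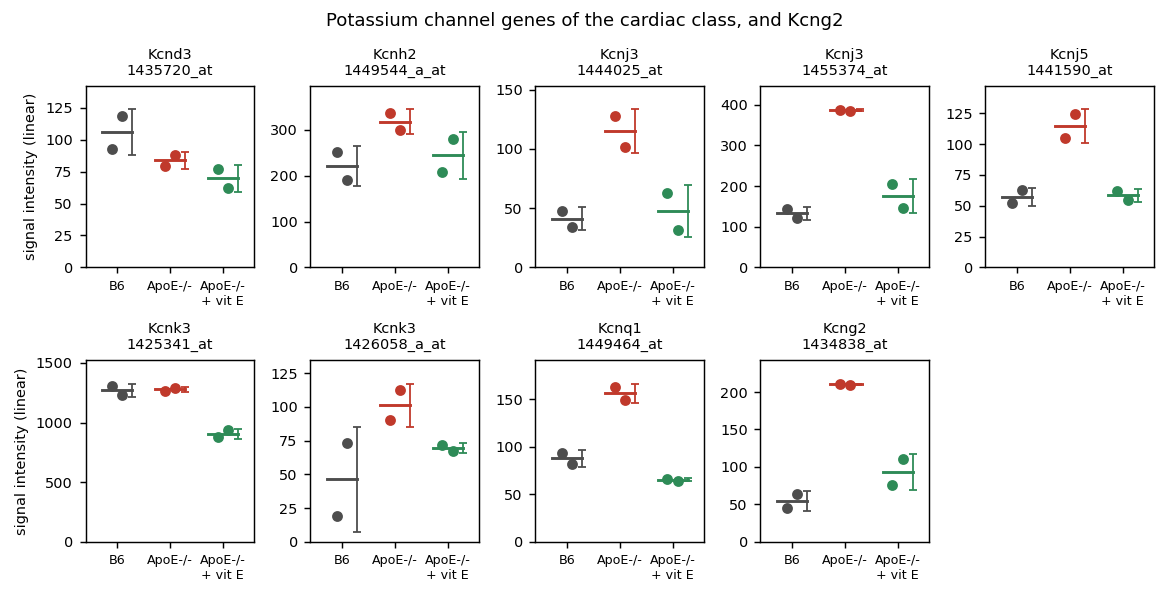
Signal intensity (linear, each panel on its own axis from 0) of the 8 tested cardiac probe sets and of Kcng2 on the 6 arrays, with points for arrays, horizontal lines for group means and bars for 1 SD (n = 2). Untreated ApoE-/- points lie above all others in the panels of Kcnj3, Kcnj5, Kcnq1 and Kcng2, while vitamin E points lie under all others for the bright probe set of Kcnk3.

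Most heart muscle markers moved with the tested probe sets of Kcnj3, Kcnj5 and Kcnq1. In untreated ApoE-/- relative to B6 mice, the bright probe set of Kcnk3 did not rise with them (log2 fold change 0.01), nor did Kcnd3 (−0.33). The dim probe sets of Kcnk3, not called or not tested, had their highest values in untreated ApoE-/- mice. Of 14 cardiac muscle markers, 13 were higher and 1, Myh7, was lower in untreated ApoE-/- mice than in B6 mice, with a median log2 fold change of 1.09. With vitamin E relative to untreated ApoE-/- mice, 12 of them fell and Myh7 rose, the median being −0.75, and in the vitamin E group relative to B6 mice 5 were higher and 1 lower, with a median of 0.11. Their summed signal intensity was 38146 to 38846 on B6, 69350 to 69587 on untreated ApoE-/- and 39463 to 43252 on vitamin E arrays, and none was under 20 on all arrays. The part of the heart muscle content of the samples in the values of Kcnj3, Kcnj5 and Kcnq1 was not tested. Skeletal muscle markers took the other order, with 13 of 14 lower in untreated ApoE-/- mice than in B6 mice, 14 of 14 higher with vitamin E than without, and sums of 58841 to 59611, 33266 to 33321 and 67012 to 77952.

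**Figure D5:**
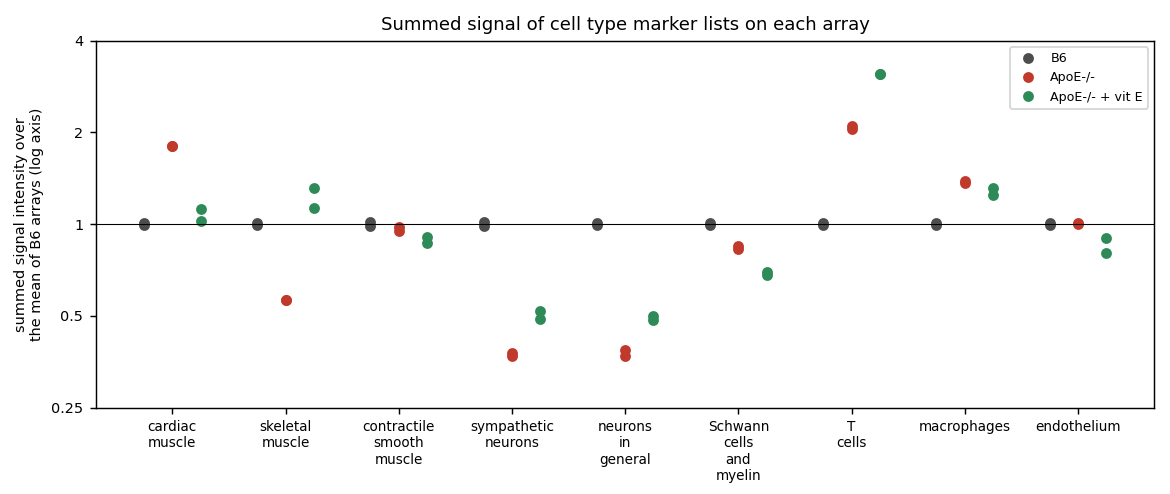
Summed signal intensity of each cell type marker list on each array, divided by its mean on the B6 arrays (log axis, 1 is the B6 mean), with points for single arrays. The cardiac muscle sums are highest on untreated ApoE-/- arrays, and both neuronal sums are highest on B6 arrays.

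Smooth muscle potassium channel genes showed 1 gene called among the 4 tested, and the pore of the BK channel was too dim to be tested. Kcna5, a delayed rectifier of arterial smooth muscle that is also found in atrium, gave 211 and 221 on B6, 130 and 157 on untreated ApoE-/- and 124 and 119 on vitamin E arrays. B6 was highest, and the vitamin E values lay under the untreated ones. Kcna5 fell 1.51-fold in untreated ApoE-/- aortas against B6 (log2 fold change −0.59, SE 0.14, adjusted p = 0.012 from limma) and was 1.77-fold lower in the vitamin E group than in B6 mice (−0.83, adjusted p = 0.0031). Between the ApoE-/- groups it differed by −0.23 (adjusted p = 0.28). The second call was kept in every alternative limma fit, and the first was lost without untreated ApoE-/- replicate 1 (adjusted p = 0.0794) or either B6 array (0.0578 and 0.0759).

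The other smooth muscle genes were not called in any comparison. Kcnj8, the pore of the vascular ATP-sensitive channel, gave 279 and 269, 290 and 329, and 246 and 251, with a log2 fold change of 0.18 in untreated ApoE-/- relative to B6 mice (SE 0.10, adjusted p = 0.2 from limma) and −0.31 with vitamin E (adjusted p = 0.078). The groups did not overlap, and the vitamin E values were the lowest. Kcne4, an accessory subunit that lowers delayed rectifier and Kcnq1 currents, gave 192 and 215, 152 and 226, and 162 and 235, so that the spread within the ApoE-/- groups was larger than any difference between groups. Kcnq5, a pore of the vascular M-type current, gave 99.7 and 120, 47.8 and 90.3, and 87.7 and 112, with log2 fold changes of −0.73 (SE 0.30, adjusted p = 0.09) and 0.59 (adjusted p = 0.23). Of the BK channel of smooth muscle, which gives calcium-driven relaxation, the 5 probe sets of the pore gene Kcnma1 stayed under 100 on every array, the brightest giving 89.3 and 91.4 on B6, 49.0 and 38.2 on untreated ApoE-/- and 61.6 and 24.4 on vitamin E arrays. A probe set of its beta subunit gene Kcnmb1 gave 69.6 and 71.3, 75.2 and 78.5, and 62.4 and 56.4, and was not tested either. The contractile smooth muscle markers, which define the labelled tissue, were bright, with sums of 22315 to 23059 on B6, 21618 to 22137 on untreated ApoE-/- and 19705 to 20522 on vitamin E arrays. Of these 10 markers, 1 was higher in untreated ApoE-/- mice than in B6 mice and 4 were lower with vitamin E than without, with medians of 0.07 and −0.29.

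Among striated muscle genes, Kcnj11, the pore of the ATP-sensitive channel of heart, skeletal muscle and pancreatic islets, gave 225 and 238 on B6, 347 and 361 on untreated ApoE-/- and 274 and 378 on vitamin E arrays. All ApoE-/- values were above the B6 values, and the ApoE-/- groups overlapped. The log2 fold change was 0.61 in untreated (SE 0.15, adjusted p = 0.015 from limma) and 0.47 in the vitamin E group relative to B6 mice (adjusted p = 0.038). The first call was lost without any 1 of the 4 arrays compared (adjusted p = 0.0574 to 0.0907). The second was lost under both scalings (0.42 and 0.32 on the log2 scale, adjusted p = 0.0662 and 0.0989), without intensity trend (0.0595), in a fit of only these groups (0.0606) and without any array but vitamin E replicate 1 (0.0622 to 0.167), with a log2 fold change of 0.24 without vitamin E replicate 2. Kcna7, a delayed rectifier of skeletal muscle and heart, gave 93.4 and 102, 78.1 and 78.0, and 111 and 107, a vitamin E to untreated ApoE-/- difference of 0.48 on the log2 scale that was not called (adjusted p = 0.07).

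In the immune and endothelial class, Kcnn4 alone was tested, the calcium-activated channel of intermediate conductance that sustains calcium entry in activated lymphocytes and hyperpolarizes endothelium. Its 2 probe sets, both of the type that detects several transcripts of the same gene, agreed in the vitamin E-treated group and disagreed in untreated ApoE-/- aortas. Probe set 1421038_a_at gave 133 and 129 on B6, 202 and 204 on untreated ApoE-/- and 270 and 251 on vitamin E arrays. Probe set 1435945_a_at gave 577 and 600, 504 and 492, and 721 and 726. The first ran B6, untreated, vitamin E from low to high, and in the second untreated ApoE-/- was lowest. In untreated ApoE-/- relative to B6 mice, 1421038_a_at rose 1.55-fold (log2 fold change 0.63, SE 0.11, adjusted p = 0.0035 from limma) while 1435945_a_at fell 1.18-fold (−0.24, SE 0.07, adjusted p = 0.025), a call lost without intensity trend (0.0533) and without any 1 of the 4 arrays compared (0.0778 to 0.135). With vitamin E relative to untreated ApoE-/- mice, 1435945_a_at rose 1.45-fold (0.54, SE 0.07, adjusted p = 0.0028 from limma) and 1421038_a_at differed by 0.36 (adjusted p = 0.066). Against B6 aortas the vitamin E-treated group was higher in both, by 0.997 and 0.299 on the log2 scale (adjusted p = 0.0005 and 0.011). The smaller of these calls was lost under median centring (0.15, adjusted p = 0.201) and without B6 replicate 1 (0.0756). Kcnn4 lies on chromosome 7, as does Apoe, and the annotated starts are 4.67 Mb apart (GRCm38.p6). Kcnj11, Kcnk6, Kcnq1 and Kcnq1ot1, which were also called, lie on the same chromosome, and their distances from Apoe were not computed.

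T cell markers were higher in 7 of 8 tested of 9 in untreated ApoE-/- relative to B6 mice, in 5 with vitamin E relative to untreated ApoE-/- mice and in 8 in the vitamin E group relative to B6 mice, with sums of 2339 to 2375, 4827 to 4960 and 7314 to 7350. Macrophage markers were higher in 4 of 7 tested of 9, in 0 and in 3. Their sums were 10481 to 10587, 14339 to 14602 and 13171 to 13846, and 1 macrophage marker was under 20 on all arrays. Endothelial markers gave 2 higher and 1 lower of 8 in untreated ApoE-/- relative to B6 mice and 3 lower with vitamin E, with sums of 3009 to 3059, 3036 to 3069 and 2437 to 2738. The part of these cells in the values of Kcnn4 was not tested. Kcna3, the voltage-gated channel of T cells, was dim and not tested, with group means of 12.2 in B6, 42.6 in untreated and 33.0 in vitamin E-treated ApoE-/- aortas.

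Of the genes without an assigned tissue, Kcng2 encodes an electrically silent subunit that joins delayed rectifier pores. It gave 44.5 and 63.9 on B6, 211 and 210 on untreated ApoE-/- and 76.2 and 110 on vitamin E arrays, with no overlap and untreated ApoE-/- highest. Kcng2 rose 3.95-fold in untreated ApoE-/- aortas (log2 fold change 1.98, SE 0.24, adjusted p = 0.00069 from limma), was 2.30-fold lower with vitamin E than without (−1.20, adjusted p = 0.017) and was 1.72-fold higher in the vitamin E group than in B6 mice (0.78, adjusted p = 0.035). The first call was kept in every alternative limma fit. The second was lost without either untreated ApoE-/- array (adjusted p = 0.0966 and 0.0989), and the third after quantile normalization (0.0682) and without any array but vitamin E replicate 1 and B6 replicate 2 (0.0613 to 0.184), with log2 fold changes of 0.51 without vitamin E replicate 2 and 0.52 without B6 replicate 1. This order of groups is that of Kcnj3 probe set 1455374_at. Kcng2 passed the filter through untreated ApoE-/- mice alone, however, which fixes that this group is high.

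Kcnk6, a tandem-pore channel also expressed in vessels, gave 452 and 488 on B6, 381 and 365 on untreated ApoE-/- and 328 and 344 on vitamin E arrays. Its values went down from B6 to untreated to vitamin E-treated ApoE-/- aortas without overlap, with log2 fold changes against B6 of −0.33 (SE 0.08, adjusted p = 0.017 from limma) and −0.48 (adjusted p = 0.0038) and of −0.15 between the ApoE-/- groups (adjusted p = 0.27). The first of these calls was lost without either untreated ApoE-/- array (adjusted p = 0.0596 and 0.1) or without B6 replicate 2 (0.116). Kcnq1ot1, a noncoding RNA read antisense to Kcnq1 from the paternal chromosome, is no channel but carries the name, and the strand its probe sets detect was not examined. Probe set 1458161_at gave 106 and 116, 130 and 120, and 193 and 159, and 1457781_at gave 52.8 and 59.5, 73.1 and 70.5, and 103 and 103. Vitamin E values were the highest in both, and the log2 fold changes of 0.66 and 0.87 in the vitamin E group relative to B6 mice were called (adjusted p = 0.011 and 0.0055 from limma), the first not without B6 replicate 1 (0.0706). The differences of 0.49 and 0.52 between the ApoE-/- groups were not called (adjusted p = 0.07 and 0.08). The epithelial gene Kcnj15, an inward rectifier of kidney, gave 104 and 99.6, 133 and 120, and 116 and 112 and was not called in any comparison.

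The 134 untested probe sets had signal intensities from 0.376 to 111, with a median of 15.0. Of these, 46 were under 20 on all arrays and 3 reached 100 on any array. No fold change is given for them.

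Genes that work with these channels were taken from fixed lists, with the brightest probe set per gene. Of 10 partner proteins of potassium channels, 8 had a probe set and 3 were tested. In both comparisons against B6, Abcc9 and Dpp6 were lower and Lrrc26 was higher, and none of the 3 was called between the ApoE-/- groups. Of all tested probe sets, 40.8% and 41.1% were called against B6 and 15.5% between the ApoE-/- groups. Dpp6 passed the filter through B6 mice alone and Lrrc26 through untreated ApoE-/- mice alone, which fixes that these groups are high. Abcc9, the sulfonylurea receptor that pairs with Kcnj8 in vessels, gave 1454 and 1420 on B6, 1124 and 1086 on untreated ApoE-/- and 1086 and 1046 on vitamin E arrays. Its log2 fold changes against B6 were −0.38 in untreated and −0.43 in vitamin E-treated ApoE-/- aortas, while Kcnj8 itself was not called. Dpp6, which traffics the transient outward channel in neurons, gave 118 and 98.9, 48.3 and 57.6, and 60.8 and 75.7, with log2 fold changes of −1.03 and −0.67.

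Of 24 voltage-gated calcium channel genes, 22 had a probe set and 8 were tested. In untreated ApoE-/- relative to B6 mice 3 rose and none fell, namely Cacna1c, Cacna1h and Cacna2d2, beside 21.7% higher and 19.1% lower of all tested probe sets. These 3 fell with vitamin E relative to untreated ApoE-/- mice, where 2 others, Cacna1s and Cacng7, rose. Of all tested probe sets, 6.99% were lower and 8.52% higher there. No test compared these shares. Cacna1h, a T-type pore, gave 81.5 and 69.6 on B6, 180 and 179 on untreated ApoE-/- and 84.7 and 81.4 on vitamin E arrays, with log2 fold changes of 1.25 and −1.11. Cacna1c, the L-type pore of heart and smooth muscle, gave 53.6 and 44.3, 122 and 91.6, and 35.6 and 65.0, with log2 fold changes of 1.12 and −1.14. In both, the untreated ApoE-/- values lay above all others, which is the order seen for Kcnj3 and Kcnj5. Cacna1h and Cacna1c passed the filter through untreated ApoE-/- mice alone, as did Kcnj5, which fixes that this group is high. Their shared order is therefore a description. Cacng7, a gamma subunit, gave 63.3 and 63.5, 38.1 and 65.0, and 105 and 113, and was higher in the vitamin E group than in B6 mice by 0.78 on the log2 scale. It passed the filter through the vitamin E group alone, which fixes that this group is high. The brightest gene of the list, Cacna2d1, gave 323 and 345, 323 and 301, and 317 and 292 and was not called.

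Of 15 voltage-gated sodium channel genes, 11 had a probe set and 4 were tested, of which 3 were lower in untreated ApoE-/- mice than in B6 mice, Scn7a, Scn2b and Scn3b. The same 3 were lower in the vitamin E group than in B6 mice. Of all tested probe sets, 19.1% and 19.2% were lower in these comparisons, and no test compared the shares. Scn3b, a beta subunit of neurons, gave 350 and 323 on B6, 167 and 137 on untreated ApoE-/- and 129 and 134 on vitamin E arrays, with log2 fold changes against B6 of −1.16 and −1.36. Scn7a, the sodium-sensing channel found in Schwann cells and sensory neurons, gave 831 and 843, 493 and 504, and 465 and 411, with −0.75 and −0.94. Scn4b, a beta subunit of muscle and brain, gave 197 and 216, 219 and 179, and 318 and 354 and was higher with vitamin E than in both other groups, by 0.76 and 0.70 on the log2 scale. Of 4 HCN pacemaker channel genes, 2 had a probe set and neither was tested.

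Markers of tissues beside the aorta moved as well. Of 8 tested oesophageal epithelium markers of 9, 6 were lower in untreated ApoE-/- mice than in B6 mice and 8 were higher with vitamin E than without, with sums of 26917 to 27309 on B6, 14972 to 15110 on untreated ApoE-/- and 28255 to 31744 on vitamin E arrays. Lung epithelium markers were lower in 4 of 6 in untreated ApoE-/- relative to B6 mice and in 5 with vitamin E, with sums of 16457 to 17077, 13423 to 13828 and 10439 to 10532. Of 5 brown adipocyte markers, 1 was higher and 1 lower in each of these comparisons, and of 3 adipocyte markers in general with a probe set, 1 was higher and 2 were lower in untreated ApoE-/- relative to B6 mice and 1 was lower with vitamin E. The sums were 28538 to 28900, 26168 to 26470 and 23065 to 27953 for brown adipocytes and 13772 to 14703, 9771 to 9782 and 8647 to 9159 for adipocytes in general. Their part in the potassium channel values was not tested.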

How the data were processed

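Aortic RNA was measured on Affymetrix MG430 2.0 arrays, with 2 arrays per group. The deposited values are signal intensities on a linear scale that the authors computed and scaled per array with GCOS, and present calls were not used here. All 167 potassium channel probe sets matched a RefSeq gene of GRCm38.p6. The 64 control probe sets were left out. Signal intensities under 20 were set to 20 before log2. Linear models with 1 mean per group were fitted to all 6 arrays by limma (version 3.58.1, R 4.3.3) with a moderation trend on intensity, which had 3 residual degrees of freedom plus 4.46 prior ones, for the 17909 of 45101 probe sets that passed the filter, and the procedure was tested on simulated data. A two-sided exact test of 2 against 2 arrays cannot give a p under 0.333, so the adjusted p values rest on a spread shared over probe sets. The labels number the arrays, and whether the pools were independent beyond that was not examined. The genes named with values on every array are those called and changed by at least 1.5-fold without overlap, all tested cardiac and smooth muscle genes, and in every other class or channel list the brightest and the most changed gene. The members, classes and marker lists were chosen with earlier results of these data known. Classes follow the tissue for which a gene is best known, and a member of another class may be expressed in the same cells. Alternatives were quantile normalization, median centring, floors of 50 and 1, no filter, a filter on the mean of all arrays, moderation without trend, a fit restricted to the compared groups, leaving out each array, a block for the replicate number, and the methods' t-test on linear and log2 values with a p of at most 0.01 and at least a 2-fold difference. The arrays within groups correlated with Pearson's r of 0.992 in B6, 0.991 in untreated and 0.984 in vitamin E-treated ApoE-/- aortas. This was computed on log2 values, with the floor of 20, over the 17909 tested probe sets.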

Additional observations from a re-analysis of the deposited data

How the results depend on the processing

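The number of arrays limits every value, since each group had 2 pools. Over 48 calls of potassium channel probe sets, none changed direction under any alternative run. Median centring kept 45 of 48, quantile normalization 44 of 47, a floor of 50 kept 47, a floor of 1 kept 46 and eBayes with no trend 44. A fit restricted to the compared groups kept 43 of 46. With a filter on the mean of all arrays, 25 of the 33 probe sets were tested, with 17, 7 and 17 calls in the 3 comparisons. It kept the 41 calls it could test, and the 7 others were not tested, those of Kcnc4, Kcnd3, Kcnj5 and of 1 probe set each of Kcnj3 and Kcnq1ot1. Without the filter on dim probe sets, 20 of the 48 calls were kept. The count of calls was then 12 in place of 20 in untreated ApoE-/- relative to B6, 6 in place of 9 between the ApoE-/- groups and 13 in place of 19 in the vitamin E group relative to B6 mice. Leaving out each array in turn gave 13 to 22, 5 to 9 and 11 to 21 calls. The cause was not tested.

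The methods' t-test, unmoderated with 2 arrays per group, passed 5 probe sets on linear and 3 on log2 values at the methods' thresholds in untreated ApoE-/- relative to B6 mice, and 6 and 2 after Benjamini-Hochberg adjustment. It passed 1 and 1 between the ApoE-/- groups and 2 and 2 in the vitamin E group relative to B6 mice, and 0 after adjustment in each, with 12 and 12, and 14 and 11, at an unadjusted p under 0.05, where limma called 9 and 19.

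With the replicate number as a block, 22, 9 and 18 probe sets were called and 47 of 48 calls were kept, the exception being Kcnd3 in the vitamin E group relative to B6 mice (adjusted p = 0.0643). Deviations of arrays with the same number correlated by 0.05, 0.05 and −0.10 between groups. The replicates of a group deviate from their mean by equal and opposite amounts, so these values cannot settle whether same-numbered arrays were processed together. That was not tested.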
